A study of Mus musculus with 2 samples.

Results

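Spliced RNA that maps outside the annotated genes of the mouse, or to the strand opposite an annotated gene, was described in long-read RNA sequencing of the heart. The loci were chosen by class and structure: every transcript model that the deposited tables place at an unannotated antisense or intergenic gene, with 2 or more exons and on mouse chromosomes rather than control RNA, was a member, and members of 1 strand whose spans shared a base were merged into 1 locus. This gave 967 loci, of which 612 were antisense, 340 intergenic and 15 antisense in 1 library and intergenic in the other. They are 5.12% of the 18870 unannotated loci and part of 33901 annotated genes and unannotated loci with reads. The tissue was heart from females of a hybrid strain, B6CASTF1/J, aged 18 to 20 months, with no treatment named. It was sequenced as 1 group of 2 libraries, replicate 1 and replicate 2, each from 2 µg of total RNA. The labels give each library a biological sample of its own and both the same donor entry, so it cannot be said whether separate animals were used. Every SD below measures only the spread between these 2 samples, which may be technical. Every p-value sets the 2 samples against counting error only. With 1 group no conditions can be compared.

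Long noncoding RNAs are transcripts without a long reading frame, and many are spliced, capped and polyadenylated like messenger RNA. Natural antisense transcripts are read from the strand opposite a gene, often from that gene's own promoter region or from inside its introns, and some are known to act on the gene they overlap. Nearly all introns of the mouse begin with GT and end with AG on the transcribed strand, so the bases at an intron's ends show from which strand it was spliced. Read on the wrong strand, the same intron begins with CT and ends with AC.

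Sequences at intron ends are shown first, because they set the antisense loci apart from one another. They were read from the GENCODE M21 transcripts and RefSeq promoter windows of the reference (GRCm38), on the strand of the locus, and only intron ends that these sequences cover could be read. Each run holds 10 bases on either side of an intron's end, with the 2 intron bases in capitals. The first introns lie opposite Dot1l, a histone methyltransferase gene (chr10:80785555-80787055, minus strand), and opposite Baz2b, a bromodomain gene (chr2:59962330-59968820, plus strand). The next lies opposite Nr2f2, the gene of a nuclear receptor of veins and atria (chr7:70358291-70359887, plus strand), and has the coordinates of an intron of Nr2f2 itself.
Opposite Dot1l, donor: atgctaacagGTaggctggt
Opposite Dot1l, acceptor: ctttccgcAGgttctccaag
Opposite Baz2b, donor: agattgacagGTgaggagaa
Opposite Baz2b, acceptor: ttggtcacAGactcctcctt
Opposite Nr2f2, donor: ctctgtacagCTgcaggagg
Opposite Nr2f2, acceptor: aggccgatACcttcccgtct

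Opposite Dot1l and Baz2b the introns had the GT and AG of a strand that is spliced in the direction of the locus. Opposite Nr2f2 the ends were CT and AC, which are AG and GT on the strand of Nr2f2. The ends were then counted over the antisense loci. An intron of an antisense locus is called mirrored here when an annotated intron of the opposite strand has the same start and end. Of 73 introns of antisense loci that were not mirrored and had both ends covered, 67 were GT-AG (91.8% [83.0 to 96.9], exact Clopper-Pearson 95% interval, as all bracketed ranges below), 5 were GC-AG, 1 was CT-GC and 0 were CT-AC. All 11 mirrored introns with both ends covered were CT-AC. This was largely set by the definition, since they share their bases with annotated introns of the opposite strand. Among 9689 annotated introns of known transcripts with reads, 98.6% were GT-AG. Intergenic loci could be read at 34 donor ends, which were all GT, and at 6 acceptor ends, which were all AG. Intervals and shares cover counting error only.

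The coverage of both ends favours short introns inside exons of the opposite gene, and among these a further kind stood out by its letters. Opposite Neat1, the noncoding scaffold RNA of paraspeckles, an intron of 59 bases (chr19:5840809-5840867, plus strand) carried all 7 reads of its locus. Opposite Lifr, a cytokine receptor gene, an intron of 66 bases (chr15:7192731-7192796, minus strand) carried 1 read in each library.
Opposite Neat1, donor: gcatagagcaGTgtttgcag
Opposite Neat1, acceptor: catagagcAGtgtttgcagg
Opposite Lifr, donor: acagaaacagGTggatctct
Opposite Lifr, acceptor: acagaaacAGgtggatctct

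Both ends of these introns held nearly the same letters: the donor and acceptor windows shared a run of 19 bases opposite Neat1 and of 20 bases opposite Lifr. A shared run of at least 8 bases was found in 6 of 68 introns of antisense loci that were not mirrored (8.82% [3.31 to 18.2]), in 0 of 11 mirrored introns and in 45 of 9439 annotated introns (0.477%). Introns under 60 bases made up 2.02% of the 794 introns of antisense loci that were not mirrored and 0.758% of the 660 introns of intergenic loci, against 3 of 92849 introns of protein-coding transcripts and 0 of 766 introns of annotated long noncoding transcripts with reads.

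Most loci were seen once. Replicate 1 held 560 loci and replicate 2 held 596, from 630211 and 664319 mouse reads, and 189 loci (19.5% [17.1 to 22.2]) were found in both libraries, which is 33.8% of the loci of replicate 1 and 31.7% of those of replicate 2. A single read supported 709 loci (73.3%), while 37 loci had at least 10 reads over both libraries. Reads at the loci numbered 1377 in replicate 1 and 1510 in replicate 2, or 0.218% and 0.227% of mouse reads. On the scale of counts per 1000000 scaled mouse reads (CPM), where 1 read is worth 1.61 CPM in replicate 1 and 1.48 in replicate 2, the summed level was 2229 ± 15.3 CPM (SD, n = 2 libraries). Antisense loci summed to 1121 ± 34.0 CPM and intergenic loci to 1066 ± 20.6 CPM, although antisense loci were the more numerous. Without loci that hold a mirrored intron the antisense sum was 681 CPM, under the intergenic sum. With all reads of the deposited genes, single-exon models included, it was 2241 CPM and the intergenic sum 1232 CPM. The locus with the most reads held 9.98% of all reads, and the 37 loci with at least 10 reads held 48.6%.

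**Figure D1:**
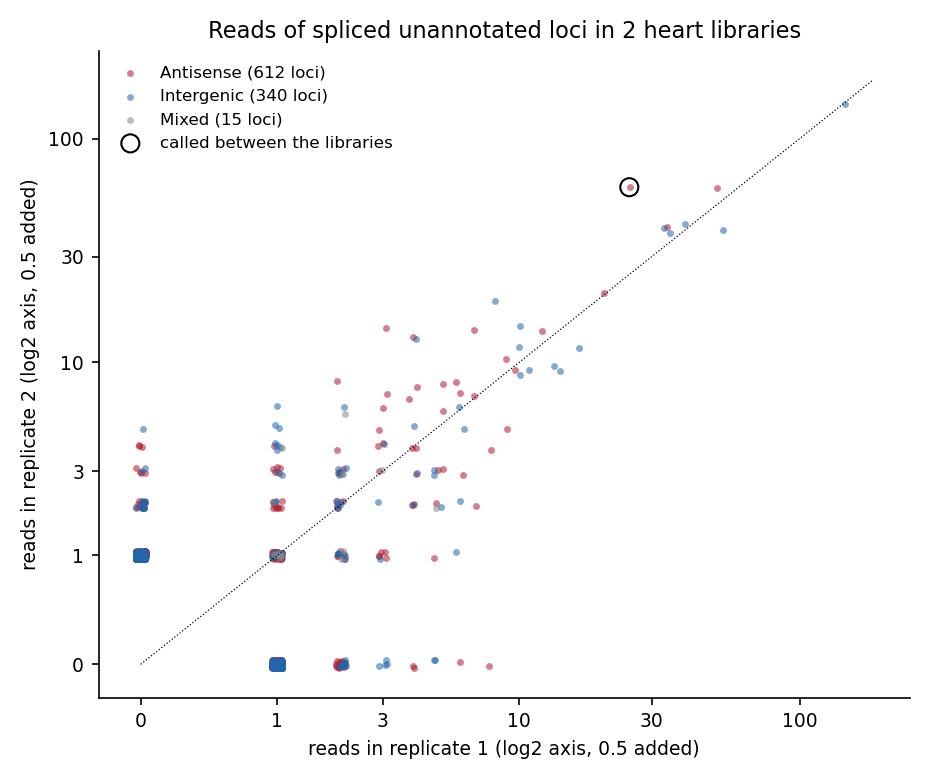
Reads of each of the 967 loci in replicate 1 (horizontal) and replicate 2 (vertical), both on log2 axes with 0.5 added and slight random scatter, coloured by class, with a dotted line at equal read numbers and a ring at the locus called between the libraries. Most loci sit at 0 or 1 read in either library, and the locus at the upper right is the intergenic locus of chromosome 11 with 147 and 141 reads.

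Recurrence rose with read number, and at a given read number in libraries of near equal depth it is largely set by counting for any kind of feature. Of 101 loci with 2 reads, 51.5% [41.3 to 61.6] were found in both libraries, against 48.4% [41.7 to 55.2] of annotated spliced long noncoding RNA genes and 47.6% [44.3 to 50.9] of annotated spliced protein-coding genes. With 3 to 4 reads the shares were 77.3% of the loci, 77.8% of the noncoding genes and 77.1% of the coding genes. With 5 to 9 reads, 90.7% [79.7 to 96.9] of the loci were in both libraries, as were 96.9% [92.9 to 98.98] of the noncoding genes and 95.1% of the coding genes. All 37 loci with at least 10 reads were in both. The differences between kinds were not tested. An identical chain of introns in both libraries was present in 148 of the 189 recurring loci. The 15 loci of mixed class are in both libraries by definition.

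**Figure D2:**
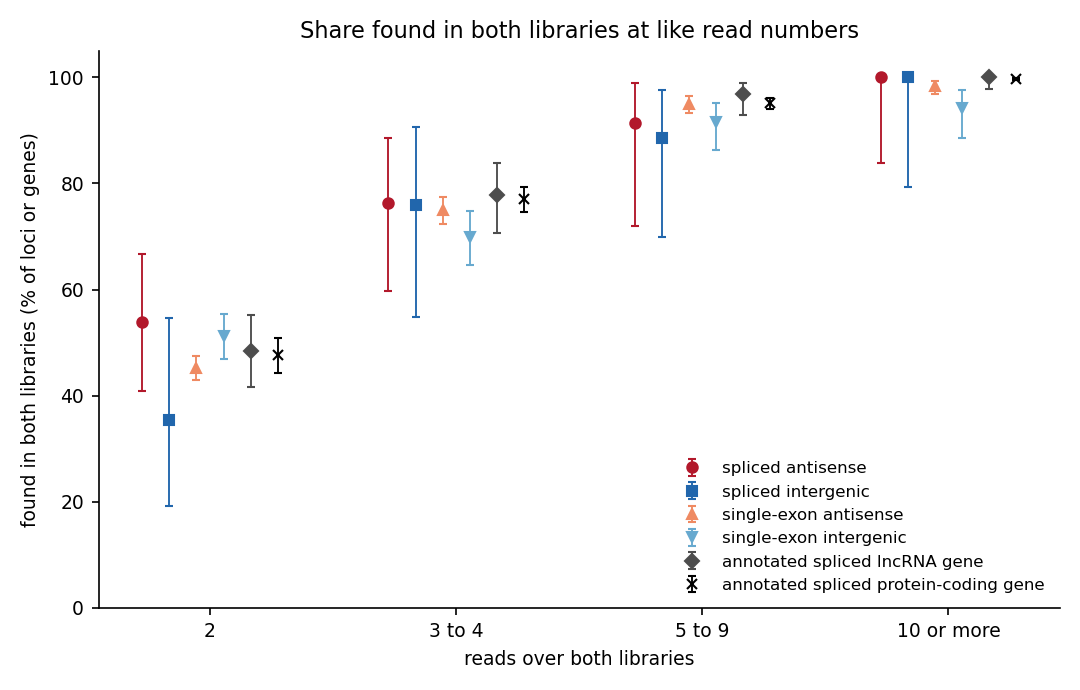
Share of loci or genes found in both libraries (vertical, percent) by the reads they had over both libraries (horizontal), for spliced and single-exon unannotated loci and for annotated spliced genes, with exact 95% intervals. Shares rise with read number in each kind, from 54.0% and 35.5% of spliced antisense and intergenic loci with 2 reads to 100% of those with 10 or more.

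The structures were small. Over both libraries the loci held 692 models in replicate 1 and 746 in replicate 2, of which 64.8% had 2 exons, 22.9% had 3 and 5.29% had 5 or more, up to 9. A model seen in both libraries counts once in each, while the annotated transcripts below count once. Median spliced length was 713.5 bases and median intron length 1637.5 bases. Known transcripts of annotated long noncoding RNA genes with reads had a median of 3 exons, 770 bases of spliced length and introns of 1739.5 bases, while protein-coding transcripts had medians of 7 exons, 2255 bases and 1282 bases. Models of 5 or more exons were 9.48% of intergenic models and 2.62% of antisense models.

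Libraries were compared locus by locus with an exact two-sided binomial test over all annotated genes and unannotated loci with at least 10 reads. A feature was called where the p, after Benjamini-Hochberg adjustment, was under 0.05. It sets the 2 libraries against counting error only. Of 8260 features tested 190 were called, a background of 2.30%, with 0.932% called as higher in replicate 1 and 1.37% as higher in replicate 2. The 37 loci that reached 10 reads gave 1 call, higher in replicate 2, a share near that background. The log2 ratio of replicate 1 to replicate 2 had a median of -0.09 among them, beside -1.77e-05 over all features, and 3 of them (8.11%) had an unadjusted p under 0.05, as had 9.79% of all features.

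The called locus lies opposite Bcl2l1, the gene of the cell-survival protein Bcl-xL. It had 25 reads in replicate 1 (40.3 CPM) and 61 in replicate 2 (90.5 CPM), a log2 ratio of -1.15 with an adjusted p of 0.026 in the exact binomial test. Bcl2l1 itself had 27 and 52 reads, so by the assigned strand both strands were lower in replicate 1. All 25 and 61 reads of the locus held a mirrored intron. The other loci with an unadjusted p under 0.05 did not pass adjustment. Opposite Ccdc80, a gene of an extracellular matrix protein, there were 3 and 15 reads, with an adjusted p of 0.20 in the exact binomial test, and at the multi-exon intergenic locus of chromosome 8 there were 56 and 38 reads, with an adjusted p of 0.40 in the same test. Fewer cells of a type and less RNA per cell cannot be told apart in such bulk tissue.

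Markers of other cell types differed between these libraries as well. All 6 heart muscle markers had reads, 15132 and 14719 in sum, and of 5 skeletal muscle markers Atp2a1 had 3 and 2 reads while Myh4, Myh2, Tnnt3 and Pvalb had 0. Summed reads in replicates 1 and 2 were 18886 and 7939 for 5 erythroid markers, 0 and 429 for 5 airway markers (with Sftpc at 0 in both) and 26 and 371 for 4 fat cell markers. Atrial markers gave 1122 and 2909 reads for 4 genes, fibroblast markers 207 and 310, endothelial markers 169 and 164 and macrophage markers 121 and 200. Their part in the difference at the Bcl2l1 locus was not tested.

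Antisense loci lay mostly inside genes. The partner is the opposite-strand gene that shares most of the span. Of 612 antisense loci 483 (78.9% [75.5 to 82.1]) lay inside the partner, 65 crossed its start, 45 crossed its end and 17 spanned it. Protein-coding genes were the partner of 554 loci. Exons overlapped an exon of an opposite-strand gene, the partner or another, in 414 loci. The partners' reads over both libraries had a median of 12, and 87 partners had none. In 145 loci the antisense reads were at least as many as the partner's reads. A long read counts once whatever its length, so these reads were compared without length scaling.

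How the strand of each read was set is not stated in the labels or file headers, so the split of reads between a gene and its antisense partner rests on the assignment in the deposited tables. Control RNAs, which carry 1 strand only, give a measured rate for unspliced RNA: 88 of 12759 ERCC control reads in replicate 1 (0.690% [0.554 to 0.849]) and 67 of 12890 in replicate 2 (0.520% [0.403 to 0.660]) were assigned to the antisense strand. None of these control models was spliced.

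Mirrored introns numbered 160 of the 954 introns of antisense loci (16.8% [14.5 to 19.3]). They fell in 123 loci (20.1%), and in 108 of these every intron was mirrored. Models with a mirrored intron held 34.1% of antisense reads in replicate 1 and 42.6% in replicate 2. None of 660 introns of intergenic loci was mirrored (0% [0 to 0.557]), where the class places the locus outside genes. Of the loci with a mirrored intron 26.02% [18.5 to 34.7] were found in both libraries, and of those without one 14.9% [11.9 to 18.4]. These shares were not matched for read number, with which recurrence rose. The median was 1 read per locus in both sets, but the 20.1% of loci with a mirrored intron held a larger share of antisense reads, as given above. The partners had a median of 24 reads in the first set and 11 in the second. A RefSeq gene on the strand of the locus was present in 5.69% of loci with a mirrored intron and in 16.8% of those without.

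Reads assigned to the partner's own strand held the same intron for 100 of the 160 mirrored introns (62.5%), and the other 60 were held by reads assigned to the antisense strand only. Every count by strand here rests on the strand that the deposited tables assign. The bases at the 11 covered mirrored introns are those of splicing on the partner's strand, as the definition of a mirrored intron largely sets. Summed over the mirrored introns, the partner's strand had 6379 reads in replicate 1 and 6685 in replicate 2, and the antisense strand 273 and 406. For 66 mirrored introns the antisense reads outnumbered those of the partner's strand.

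By the assigned strand, the antisense locus with the most reads lay opposite Ubl3, which encodes a membrane-anchored ubiquitin-like protein. Among antisense loci without a mirrored intron it was the one at 9030025P20Rik, with 20 and 20 reads. The locus (chr5:148509279-148552157, plus strand) had 53 and 60 reads, and Ubl3 had 53 and 61. Its main intron of 39950 bases was held by 53 and 59 antisense reads and by 50 and 58 reads of Ubl3. Mbnl1, a splicing regulator of heart and skeletal muscle, had 14 and 14 reads, and the locus opposite it (chr3:60529549-60595749, minus strand) had 33 and 42. Its mirrored intron of 65789 bases was held by 33 and 41 antisense reads and by 0 reads of Mbnl1 in both libraries. Across these junctions the reference bases are the following, on the strand of the locus, with the exon after the intron in capitals.
Opposite Ubl3, junction: gcaaattaatCATATCCGCC
Opposite Mbnl1, junction: agcaacgaccTTTCAGTGAA

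By the assigned strand, antisense reads also outnumbered those of Tox, Gtf2a1 and Crebbp. Tox, a nuclear factor known from T cell development, had 0 reads in both libraries, while the locus opposite it (chr4:6820694-6990483, plus strand) had 7 and 14 reads. All of these reads held the same 2 introns, of 19213 and 147963 bases, which have the ends of introns of Tox. Counted on the other strand, these would be 7 and 14 reads of Tox. Gtf2a1, a subunit of a general transcription factor, had 2 and 1 reads, against 10 and 9 opposite (chr12:91575584-91589639, plus strand). Crebbp, a histone acetyltransferase, had 2 and 1 reads, against 5 and 8 opposite (chr16:4128444-4213997, plus strand). The locus opposite Crebbp held a chain of 6 exons in both libraries, whose 5 introns are all introns of Crebbp, between 1265 and 33005 bases long, and no read of Crebbp used any of them. A count of 0 allows up to 3 reads, or 4.83 CPM in replicate 1 and 4.45 CPM in replicate 2.

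At Rtn4ip1, a mitochondrial gene, the order was the reverse, with 73 and 82 reads of the gene and 9 and 10 opposite. The intron there, of 5222 bases, was held by 50 and 57 reads of the gene. At Bcl2l1 the intron of 283 bases was held by 20 and 54 antisense reads and by 12 and 25 reads of the gene. That locus (chr2:152826180-152830618, plus strand) lies inside Bcl2l1, and its main model has a first exon of 3867 bases.

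**Figure D3:**
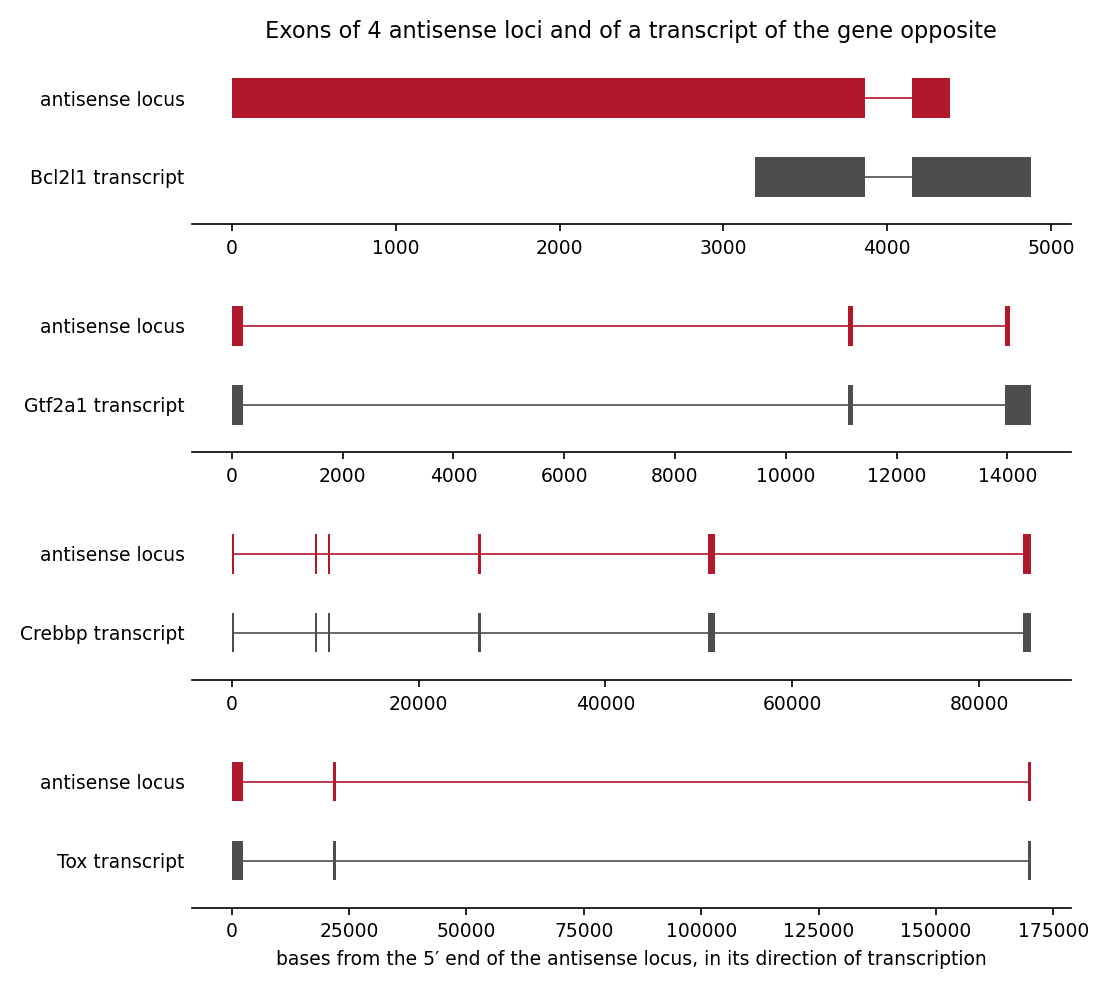
Exons (boxes) and introns (lines) of the main model of 4 antisense loci (red) and of 1 annotated transcript of the opposite gene (grey), in bases from the 5′ end of the locus, to scale in each panel, with the transcript of the gene cut off shortly beyond the locus and very short exons widened to be visible. Every intron of the models drawn (1, 2, 5 and 2 from top to bottom) has the ends of an intron of the gene.

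Over all models of a locus, 2 of 3 introns opposite Ubl3 and Bcl2l1, 1 of 2 opposite Mbnl1 and 5 of 6 opposite Crebbp were mirrored. The locus opposite Ccdc80, with 3 and 15 reads, held mirrored introns only. They were of 446 bases (3 and 15 reads) and 7622 bases (0 and 8 reads), each held by 10 and 10 reads assigned to Ccdc80. The other named antisense loci had no mirrored intron. Opposite the end of 9030025P20Rik, a locus of up to 4 exons (chr17:14981576-14992898, minus strand) had 20 reads in each library, against 1 and 0 reads of the gene, and overlaps RefSeq's Gm3255. Inside Camta1, which encodes a calmodulin-binding transcription activator and had 178 and 168 reads, a locus of 2 exons (chr4:151096980-151097773, plus strand) had 12 and 14 reads and touched no exon of Camta1. Inside Senp7, a SUMO protease gene with 1 and 1 reads, a locus of 2 exons (chr16:56112154-56116309, minus strand) had 9 and 5. Inside Cep85, a centrosome gene with 33 and 23 reads, there were 4 and 13 reads over 6 chains of introns.

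RefSeq listed genes on the strand of several of these. The locus across Plscr5, a gene of the phospholipid scramblase family, had 7 reads in each library and overlaps Gm31588. At Prr3 there were 6 and 8 reads (overlapping Gm32655) while Prr3 had 0 in both libraries. This locus shares only 1 base with Prr3 and starts just outside the RefSeq start of Abcf1, on the strand opposite Abcf1. In Rusc2 there were 6 and 7 reads (overlapping Gm52698) beside 15 and 11 of the gene. A chain of 5 exons seen in both libraries ran across the end of Ctcfl, the germ cell relative of the insulator gene Ctcf, with 3 and 3 reads, and overlaps Gm40011. The whole locus had 5 and 3 reads, against 1 and 0 of Ctcfl.

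**Figure D4:**
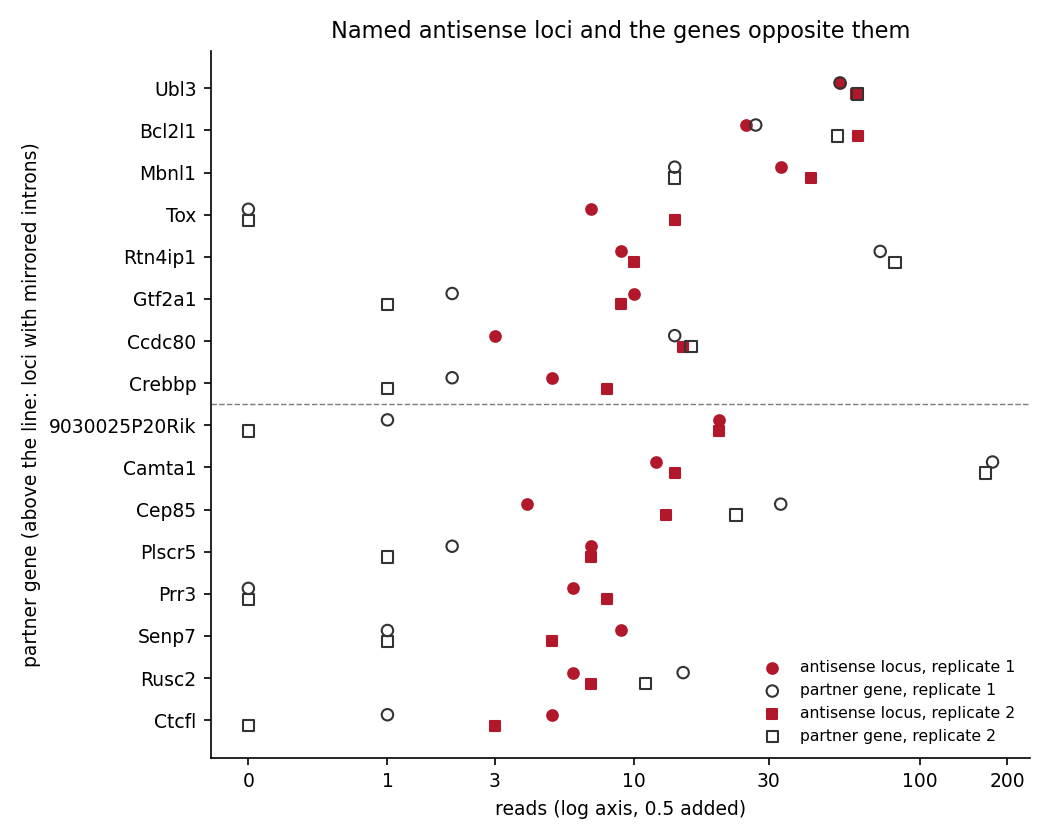
Reads (horizontal, log axis with 0.5 added) of the 16 named antisense loci (filled) and of their partner genes (open) in replicate 1 (circles) and replicate 2 (squares), with loci that hold a mirrored intron above the dashed line. Opposite Ubl3 the symbols nearly coincide. Opposite Mbnl1, Tox, Gtf2a1 and Crebbp, among others, the locus had more reads than the gene in both libraries. At Rtn4ip1 and Camta1, among others, it had fewer. The locus shown at Prr3 shares only 1 base with that gene.

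Heart genes also had spliced antisense loci, with few reads. A spliced antisense locus overlapped 7 of 20 sarcomere genes, against 526 of 12840 protein-coding genes with reads (4.10%) and 6.25% [3.16 to 10.9] of the 176 protein-coding genes with at least 1000 reads. The median gene had 1206.5 reads in the sarcomere list and 12 among all protein-coding genes. The difference was not tested. The count was 3 without replicate 2, 6 without replicate 1 and 4 without loci that hold a mirrored intron. Among the 7 were Tnnt2, Actc1, Ttn, Actn2, Ldb3 and Myom1, which encode parts of the contractile filaments and the Z disc and M band that hold them. Reads of these loci were 0 and 2 for Tnnt2, 2 and 1 for Ldb3 and 1 and 2 for Myom1, and 1 in all for each of Actc1, Ttn and Actn2. The loci of Tnnt2, Actc1 and Ttn held a mirrored intron, and the genes had 422 and 392, 1620 and 1740, and 56 and 61 reads.

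Among 14 calcium handling genes Atp2a2, the calcium pump of the sarcoplasmic reticulum, had 1 such locus with 1 read, and Ryr2, the calcium release channel, had 3 with 1 read each, of which 2 held mirrored introns only. Of 15 heart transcription factor genes with reads, Irx4, a factor of the ventricle, had a locus with 3 and 4 reads beside 16 and 7 of the gene, and Ppargc1a, a regulator of mitochondrial genes, had one with 0 and 2 reads, whose 1 intron was mirrored. Lpl was the only one of 18 fatty acid oxidation genes with such a locus, with 1 read. None of 10 endothelial and 10 fibroblast genes had one.

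Intergenic loci included the most abundant of all. The locus at chr11:31545795-31549652 (plus strand) had 147 and 141 reads, 223 ± 19.5 CPM (SD, n = 2). Nearly all of them, 146 and 140, came from 1 model of 2 exons with 1859 spliced bases and an intron of 1999 bases. Its nearest annotated gene, Bod1, a gene of chromosome segregation, is 115529 bases away and had 107 and 126 reads. RefSeq's table held no gene of known strand there on the strand of the locus.

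The widest range of splice forms came from chr8:77960122-77985239 (minus strand), with 56 and 38 reads over 24 chains of introns made from 19 introns. A chain of 7 exons was identical in both libraries, and the nearest annotated gene was the noncoding Gm29895, at 58771 bases and with 0 reads. At chr2:75638367-75642874 (plus strand), with 38 and 41 reads, the main model joined its 3 exons over introns of 60 and 70 bases. Loci at chr1:189993452-189998270 (plus strand) and chr11:107201904-107205838 (plus strand) had 32 and 41 and 35 and 38 reads. The second of these overlaps RefSeq's Gm39425 and ends 2054 bases from Pitpnc1, a gene of phosphatidylinositol transfer, on the opposite strand. At chr1:141073061-141104014 (minus strand) a chain of 6 exons was identical in both libraries, with 1 and 3 of the locus's 1 and 4 reads.

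The other named intergenic loci had between 6 and 19 reads in each library, except the locus at Cnksr3 with 4 and 13. Some lay beside genes of known function: 33867 bases from Mn1, a transcriptional regulator (8 and 19 reads, overlapping Gm36149), 13378 bases from Hrh2, a histamine receptor gene (13 and 10 reads, overlapping Gm34640), and 20895 bases from Tgfb2, a growth factor gene of heart development (6 and 6 reads, overlapping Gm35546). These 3 genes had at most 4 reads in either library. Next to Ints13, a subunit of the Integrator complex with 10 and 4 reads, a locus of 2 exons had 16 and 12. At 29926 bases from Slc25a36, a mitochondrial carrier gene, another had 14 and 9.

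Distances to annotated genes ran from 0 to 362986 bases and were not set beside those of other intergenic positions. Of 339 intergenic loci on a sequence with an annotated gene, 56 overlapped a gene, 74 lay within 1000 bases, 137 within 5000 and 307 within 50000, with a median of 8014 bases. The nearest gene was on the opposite strand with its start towards the locus start in 70 loci and with its end towards the locus end in 74, and on the same strand upstream in 71 and downstream in 68. No side held a majority.

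**Figure D5:**
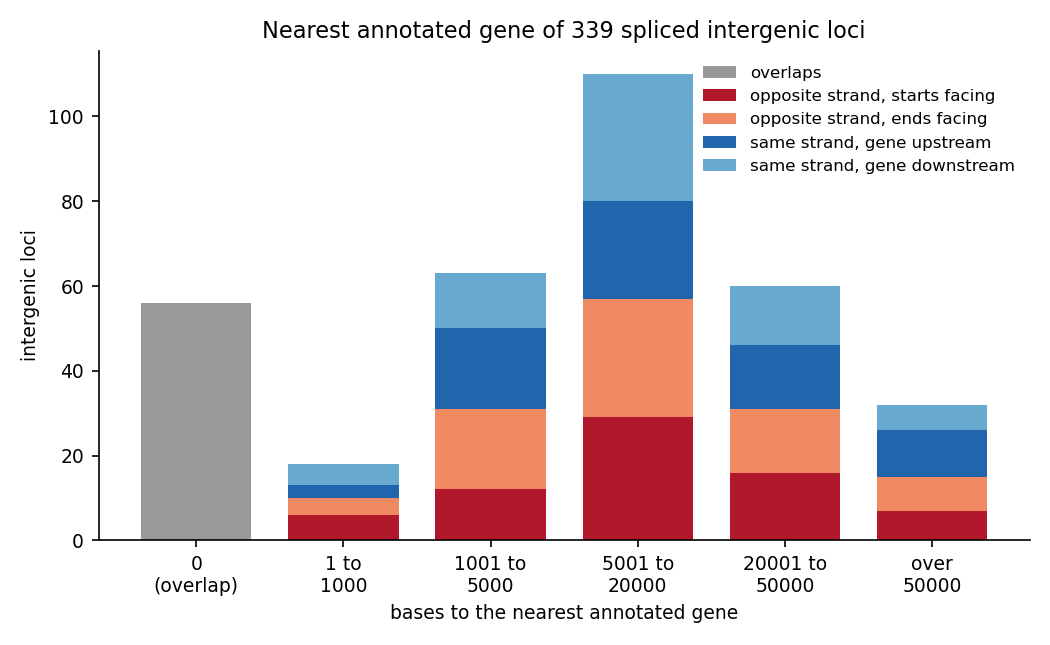
Number of intergenic loci (vertical) by distance in bases to the nearest annotated gene (horizontal classes), with colours for the strand and side of that gene. The fullest class holds 110 of 339 loci, 56 loci overlap a gene, and 32 lie beyond 50000 bases.

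Start sites were set beside RefSeq's promoter windows, 250 bases before to 50 after an annotated start. The 5′ end of 60 loci fell in a window of a gene on the opposite strand and that of 61 in a window on the same strand. Windows are printed for 3 intergenic loci, 5′ to 3′ on the strand of the named gene (RefSeq, GRCm38.p6), with capitals for 10 bases from the 5′ end of the locus. For Cnksr3, a scaffold gene of kinase signalling, and Pcp4l1, a gene related to a calmodulin regulator, the locus is on the other strand, so it starts at the last capital and runs leftwards. For Gm36149 it starts at the first capital.
Cnksr3 window, chr10:7212188-7212487, minus strand: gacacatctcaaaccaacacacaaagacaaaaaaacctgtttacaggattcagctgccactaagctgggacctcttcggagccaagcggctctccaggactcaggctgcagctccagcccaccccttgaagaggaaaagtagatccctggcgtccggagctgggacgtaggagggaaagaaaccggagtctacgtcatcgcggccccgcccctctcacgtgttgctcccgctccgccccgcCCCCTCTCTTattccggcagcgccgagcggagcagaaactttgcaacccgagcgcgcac
Pcp4l1 window, chr1:171196219-171196518, minus strand: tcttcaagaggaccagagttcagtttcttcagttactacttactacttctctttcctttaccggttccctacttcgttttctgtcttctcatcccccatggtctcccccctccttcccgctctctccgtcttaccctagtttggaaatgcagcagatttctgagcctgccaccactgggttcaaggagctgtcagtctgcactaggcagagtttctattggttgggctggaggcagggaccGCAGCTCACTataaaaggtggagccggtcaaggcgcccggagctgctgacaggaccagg
Gm36149 window, chr5:111490630-111490929, plus strand: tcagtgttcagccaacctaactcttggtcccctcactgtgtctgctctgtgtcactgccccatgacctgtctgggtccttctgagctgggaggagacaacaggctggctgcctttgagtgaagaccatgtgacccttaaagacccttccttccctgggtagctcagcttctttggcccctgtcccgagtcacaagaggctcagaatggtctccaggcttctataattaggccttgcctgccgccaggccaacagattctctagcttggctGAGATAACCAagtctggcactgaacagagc

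The locus at Cnksr3 had 4 and 13 reads and began at the annotated start base of Cnksr3 (7 and 15 reads), running away from it. That at Pcp4l1 had 4 and 3 reads, beside 166 and 135 of the gene, and also began at the annotated start base. The locus in the Gm36149 window began 20 bases after that gene's start. The windows were searched on both strands for 3 motifs, none of which is contained in another. GGGCGG was in 44 of the 60 opposite-strand windows (73.3%), in 17 of the 61 same-strand windows (27.9%) and in 35.6% of all 32817 windows. TATAAA was in 2 of the opposite-strand windows (3.33%), the Pcp4l1 window among them, in 8 of the same-strand windows (13.1%) and in 13.6% of all. CCAAT was in 22 of each set (36.7% and 36.1%) and in 37.4% of all. The median number of CG pairs was 25 in opposite-strand windows and 7 in same-strand windows, as it was over all windows. Such matches describe letters and were not tested.

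RefSeq's gene table, which is another annotation of the same build, listed a gene on the strand of the locus at 209 loci (21.6%), of which 172 were long noncoding RNA genes. The share was 33.2% [28.2 to 38.5] of intergenic and 14.5% [11.8 to 17.6] of antisense loci, and 32.8% [26.2 to 39.99] of loci found in both libraries against 18.9% [16.2 to 21.8] of loci found in 1. That table lists 49997 genes, and the 5591 of them without a known strand could not be matched.

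The 3′ ends were read where annotated transcripts cover them. At least 12 A among the 20 bases after the end of the model were found for 12.1% [6.76 to 19.4] of 116 models of antisense loci without a mirrored intron, for 24.4% [15.3 to 35.4] of 78 models of loci with one and for 45.9% of 4924 single-exon antisense models. AATAAA, the usual polyadenylation signal, was among the last 40 bases in 16.7% [10.3 to 24.8], 2.22% [0.461 to 6.36] and 6.52% of them, over 114, 135 and 4724 models.

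Chromosome Y held 2 intergenic loci, chosen here after their values were seen. They had 6 and 5 reads (chrY:43918756-43923547, minus strand) and 1 and 4 reads (chrY:37763151-37765455, minus strand). The labels name female mice, and Ddx3y, Kdm5d, Uty and Eif2s3y had 0 reads in both libraries. Only 1 annotated gene of that chromosome had reads, 10 in each library.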

How the data were processed

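Long reads of 2 heart libraries were analysed. Per the file headers, the deposited tables hold raw counts, one per transcript model and library. The deposited notes name mm10 and GENCODE M21, and the new models name TALON. The sources used here give no aligner, version, read filter or strand calling. Each library was annotated on its own, and models without reads are not listed.

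Members were taken by class and exon number and merged by overlap on 1 strand. Library sizes were scaled by TMM (edgeR 4.0.16, R 4.3.3) over features with at least 10 reads. The exact binomial test was tested on simulated data with counting error only, in which 27 of 100 features with a 2-fold difference, 59 of 100 with a 4-fold difference and 1 of 8155 unchanged ones were called. In log2 ratios 0.5 reads were added. One alternative took library sizes from DESeq2 1.42.0. The remaining computation ran in Python 3.11.15 with scipy 1.17.1 and pandas 2.3.3.

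No genome sequence was used: bases came from GENCODE transcripts and RefSeq windows, which agreed at all 112544 shared bases, and do not show the strain's own alleles. Named were the 15 antisense and 15 intergenic loci with the highest mean CPM and at least 3 reads in each library, every called locus, the 5 with most exons in a shared chain, and list genes, of which 1 is not reported here. Other loci whose sequences are printed were picked after their values were seen, for covered ends or, at Neat1 and Lifr, for the longest shared runs among introns seen in both libraries. Members and lists were chosen with earlier results of these data known.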

Additional observations from a re-analysis of the deposited data

How the results depend on the processing

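Counts of loci rest on single reads. With at least 2 reads over both libraries 258 loci remained, 145 antisense and 98 intergenic, and with at least 2 reads in each library 84 of the recurring loci did, 44 antisense and 36 intergenic. Leaving out 1 library gave 560 to 596 loci, 356 to 361 antisense and 189 to 220 intergenic. Counting all reads of the deposited genes, single-exon models included, raised the summed level to 3526 ± 580 CPM. Antisense loci then summed to 2241 ± 573 CPM and intergenic loci to 1232 ± 9.55 CPM. The locus opposite Gm26917 alone had 650 of these reads in replicate 1 and 0 in replicate 2. The same setting raised the calls between the libraries from 1 to 13 of 70 loci tested, beside 222 of 8269 features (2.68%). By construction this adds single-exon reads only in the library where the gene had a spliced model, and 12 of the 13 loci then had 0 reads in the other. Without loci that hold a mirrored intron (an alternative added after seeing the data) the summed level was 1789 CPM and that of antisense loci 681, the share inside the partner 74.2%, and 4 sarcomere genes had an antisense locus. That count was 3 to 6 without 1 library. With protein-coding and noncoding RNA genes only, the median distance to a gene was 11238 bases, and without 1 library it was 8048.5 to 8179.5. The Bcl2l1 locus stayed called, with an adjusted p between 0.0181 and 0.0358 in the exact binomial test, under every library size and read minimum tried. Mirrored introns made up 16.8 to 19.2% under every setting tried. No paired analysis was possible because there is 1 group. Depth limits all of this: 1 read is 1.61 or 1.48 CPM, and 930 of 967 loci were too shallow to be tested.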
